A study of Homo sapiens with 12 samples.

Results

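The NF-kB inflammatory cytokines and chemokines described here are 10 genes chosen by name: the chemokines CXCL1, CXCL2, CXCL3, CXCL8, CCL2 and CCL20, the interleukins IL1A, IL1B and IL6, and TNFAIP3, an inhibitor that NF-kB itself induces. They are 10 of the 18132 genes read by the array, and 17 of the 44988 probe sets annotated to a single gene symbol. The groups compared were 6, from 3 established lung cancer lines. The H1993, H1693 and H1650 knockdown cells (KD) were transduced with a lentivirus that carried a short hairpin RNA against the kinase MARK2, and the PLKO cells of each line received the empty pLKO lentiviral vector, which carries no hairpin. The submitters describe all 3 lines as overexpressing MARK2, and the 2 arrays of each group as biological replicates. The labels name no cytokine or other stimulus, and the number and sequence of the hairpins are not given in the sources used here. Biotinylated cRNA made from total RNA was read on Affymetrix PrimeView arrays, and each deposited value is the log2 signal of a probe set, so that a difference of 1 is a 2-fold difference in signal.

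NF-kB is a family of dimeric transcription factors that inhibitory IkB proteins hold in the cytoplasm. Interleukin 1, tumour necrosis factor and Toll-like receptor ligands activate the IkB kinase complex, the IkB proteins are degraded, and the freed dimers bind kappa B sites at the promoters of cytokine genes and of their own inhibitors. Cells of epithelial tumours, lung cancers among them, can secrete these cytokines: the CXCL members draw neutrophils, CCL2 draws monocytes and CCL20 draws CCR6-positive lymphocytes and dendritic cells.

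All 10 genes were among the 16205 tested, those with a log2 signal of at least 5 on at least 2 of the 12 arrays. IL1A reached that signal on 5 arrays, all from knockdown cells, and so entered the test through the group where it was high. CCL2 reached it on 6 arrays, IL6 and CCL20 on 11 and the other members on all 12. Several probe sets read 6 of the members and a single set reads the other 4, and each gene was represented by its brightest set. A further probe set is annotated to both CXCL1 and CXCL2. It read 6.42 to 7.23 over the 12 arrays and was not tested.

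The targeted gene MARK2 changed by -2.35 in H1993 and by -1.27 in H1693 on the log2 scale, and by -0.29 in H1650, which did not pass the test (limma adjusted p = 0.156), so that a knockdown was not shown in H1650. Its level averaged 9.12 ± 0.08 in H1993 PLKO, 7.86 ± 0.15 in H1693 PLKO and 5.94 ± 0.19 in H1650 PLKO, so that the control cells of H1650, described as overexpressing MARK2, were the dimmest. All 8 epithelial markers examined, such as EPCAM and CDH1, reached a log2 signal of 5 on both arrays of every group. All 3 endothelial markers and all 3 lung lineage markers examined did so too, so reaching it does not tell cell types apart. Among the epithelial markers, KRT8 averaged 7.19 in H1650 KD, against 11.66 in H1650 PLKO. KRT7 averaged 6.38 in H1693 KD and 6.70 in H1693 PLKO, against 14.24 in H1993 KD and 14.16 in H1993 PLKO. The 3' minus 5' signal of GAPDH, which can grow as RNA is degraded, was 6.82 ± 0.07 in H1650 KD arrays and 2.68 ± 0.56 in H1650 PLKO arrays (log2, SD, n = 2), and lay between -0.12 and 0.02 on the arrays of the other lines. In H1650 the hairpin and RNA integrity cannot be told apart, so every H1650 change given below is a difference between those arrays. The H1650 PLKO arrays also differed in the GAPDH signal from the PLKO arrays of the other lines. Line and RNA integrity therefore cannot be told apart where control levels of H1650 are compared. Of 7 leucocyte markers, 6 were measured. Their summed signal was 9.39 to 9.49 in H1993 KD and 8.92 to 9.07 in H1993 PLKO, 7.81 to 8.01 in H1693 KD and 7.83 to 8.02 in H1693 PLKO, and 8.31 to 8.38 in H1650 KD and 8.55 to 8.77 in H1650 PLKO (log2 of the sum). PTPRC, the pan-leucocyte CD45, averaged 4.38 in H1993 KD, against 4.03 in H1993 PLKO, and lay below 5 in every group. The monocyte and macrophage genes CD14 and LYZ averaged 8.72 and 6.18 in H1993 KD, against 8.21 and 4.48 in H1993 PLKO. CD14 was the brightest leucocyte marker in that line and so weighs most in the sum. Of the same list, CSF1R averaged 6.39 in H1993 KD, against 6.44 in H1993 PLKO, CD3E 5.97, against 5.87, and ITGAM 5.04, against 4.85. Of 4 fibroblast markers, the summed signal was 9.04 to 9.26 in H1993 KD and 8.74 to 8.79 in H1993 PLKO, 10.66 to 10.68 in H1693 KD and 10.08 to 10.09 in H1693 PLKO, and 9.24 to 9.51 in H1650 KD and 9.15 to 9.24 in H1650 PLKO. COL1A1, a collagen chain, averaged 10.52 in H1693 KD, against 9.85 in H1693 PLKO, while DCN, which encodes decorin, averaged 4.35 in H1693 KD, against 4.39 in H1693 PLKO. The part of these markers in the changes of the cytokines was not tested.

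The promoters of 9 members are in the RefSeq table of assembly GRCh38.p14, which gives the 250 bases before and the 50 bases from each annotated start. Of these windows, 7 hold a match to a kappa B motif. The 100 bases before those starts are printed because they show how alike this stretch is in CXCL1, CXCL2 and CXCL3. They lie at chr4:73869293-73869392 on the plus strand (CXCL1), chr4:74099196-74099295 on the minus strand (CXCL2), chr4:74038690-74038789 on the minus strand (CXCL3) and chr4:73740469-73740568 on the plus strand (CXCL8). The others lie at chr7:22727100-22727199 on the plus strand (IL6), chr2:227813742-227813841 on the plus strand (CCL20) and chr6:137867159-137867258 on the plus strand (TNFAIP3, from a start 910 bases from the first base of the gene). Each is written 5′ to 3′ in the direction of its gene, from base -100 to base -1, with capitals for every match, on either strand, to the 10-letter kappa B consensus or to the looser GGNNNTTCC.
CXCL1: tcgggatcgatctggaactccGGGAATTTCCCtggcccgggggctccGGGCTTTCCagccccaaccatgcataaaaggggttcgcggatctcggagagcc
CXCL2: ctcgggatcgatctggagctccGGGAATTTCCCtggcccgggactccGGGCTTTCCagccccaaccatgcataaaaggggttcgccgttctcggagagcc
CXCL3: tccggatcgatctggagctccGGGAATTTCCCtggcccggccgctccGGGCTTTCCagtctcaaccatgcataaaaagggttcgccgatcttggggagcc
CXCL8: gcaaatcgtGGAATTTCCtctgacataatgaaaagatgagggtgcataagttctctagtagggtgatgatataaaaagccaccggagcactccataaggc
IL6: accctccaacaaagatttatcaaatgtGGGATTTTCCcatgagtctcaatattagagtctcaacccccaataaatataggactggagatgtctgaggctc
CCL20: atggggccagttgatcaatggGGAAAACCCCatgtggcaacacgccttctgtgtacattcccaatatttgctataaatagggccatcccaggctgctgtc
TNFAIP3: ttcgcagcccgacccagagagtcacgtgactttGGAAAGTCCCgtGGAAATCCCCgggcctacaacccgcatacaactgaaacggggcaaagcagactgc

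CXCL1, CXCL2 and CXCL3 are neighbours on chromosome 4 and share a run of 23 identical bases in these windows, and CXCL1 and CXCL2 share a run of 42. The kappa B consensus matched at -79 to -70 in CXCL1 and CXCL3 and at -78 to -69 in CXCL2, with an overlapping match on the opposite strand in each, and all 3 windows held a second GGNNNTTCC match at -53 to -45. CXCL8, on the same chromosome, held the looser motif at -91 to -83, and its longest run shared with CXCL1 was 9 bases. IL6 held the consensus at -73 to -64. CCL20 held it on the opposite strand at -79 to -70, and TNFAIP3 held 2 copies on the opposite strand, at -67 to -58 and -55 to -46. The consensus was thus found in 6 of 9 member windows and in 5.91% of the 35116 promoter windows of the table. GGNNNTTCC, which overlaps the consensus, was found in 7 of 9 and in 20.1% of all windows. On either strand, the AP-1 motif TGANTCA was found in CXCL8 and IL1A (7.71% of all windows), TTGCNNAA, a C/EBP-type motif, in CXCL2, IL1B and IL6 (10.5%), and TATAAA in CXCL8, IL1A and CCL20 (11.5%). Neither kappa B motif was in the windows of IL1A or IL1B, which says only that these letters are not in this stretch. The matches are a description of sequence and no measure of binding.

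**Figure D1:**
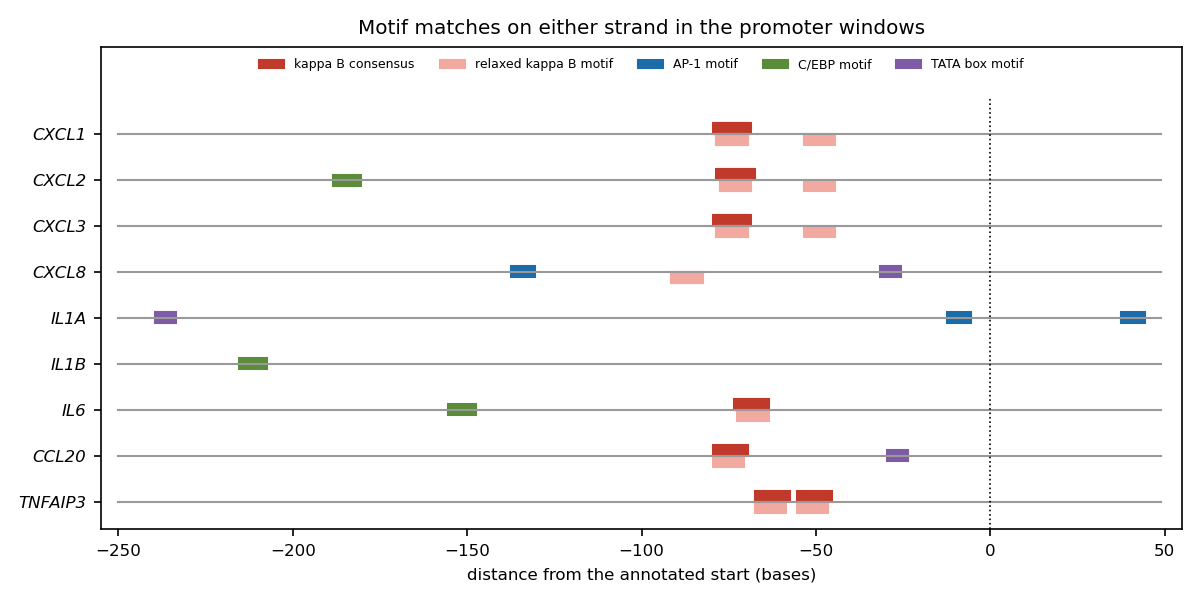
Motif matches on either strand in the promoter windows of the 9 members in the RefSeq table, by distance from the annotated start (bases, dotted line at 0). The kappa B matches of CXCL1, CXCL2, CXCL3, CXCL8, IL6, CCL20 and TNFAIP3 lie between -91 and -45 bases from the start.

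After MARK2 knockdown more of the 10 genes rose than fell in H1993, where 6 rose and 1 fell. The members were chosen with earlier results of these data known, so their counts, here and below, are no independent evidence. In that line 18.9% of all genes tested rose and 14.5% fell. Leaving out KD replicate 1 or PLKO replicate 2 of H1993 brought the 7 calls to 4. IL1A had the largest rise, with its control arrays under the log2 signal of 5, followed by IL1B and CXCL8, and CXCL3 fell. In H1693 2 members rose, CCL2 and CXCL2, against 17.1% of all genes higher and 15.9% lower, and none fell by limma, at an adjusted p or at an unadjusted p under 0.05. In H1650 8 members rose on their brightest sets and the changes of the other 2 were above 0, against 36.7% of all genes higher and 16.7% lower. The median change of the 10 was 0.45 in H1993, 0.16 in H1693 and 1.09 in H1650 (log2), beside medians over all genes tested of 0.02, -0.02 and 0.15. Quantile normalisation brought the H1650 median over all genes to 0.04, and the count of members higher there was again 8. With the mean of a gene's probe sets 7 members were higher in H1650 and 1 was lower, which was IL6 at -0.71. CXCL2 was the member past the threshold in all 3 lines. In RNA from whole cultures, more cells making a transcript and more transcript per cell cannot be told apart.

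**Figure D2:**
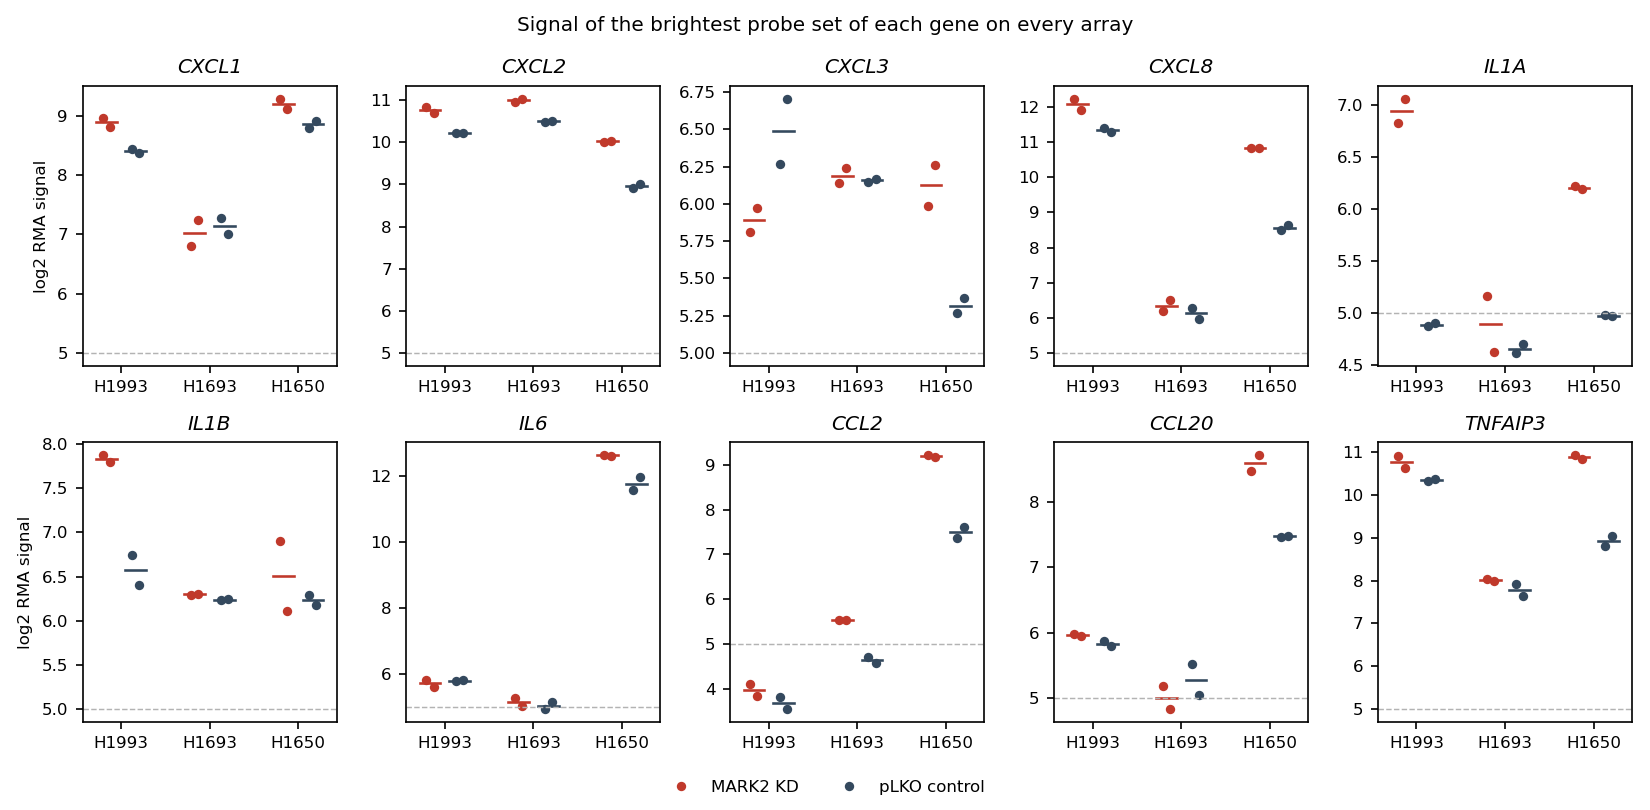
log2 signal of the brightest probe set of each member on every array, with a point for each array and a line at the mean of the 2 arrays of a group. MARK2 KD cells are left of the PLKO cells of the same line, the vertical scale differs between panels, and the dashed line marks the log2 signal of 5. In H1993 and H1650 both KD arrays of IL1A lie above both PLKO arrays, and in H1693 the groups differ by 0.24.

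CXCL1, CXCL2, CXCL3 and CXCL8 are ligands of the receptor CXCR2 and attract neutrophils. CXCL2 read 10.82 and 10.70 in H1993 KD, against 10.21 and 10.21 in H1993 PLKO. In H1693 it read 10.96 and 11.03 in KD, against 10.48 and 10.51 in PLKO, and in H1650 10.003 and 10.04 in KD, against 8.91 and 9.02 in PLKO. The groups did not overlap in any line. How many of all genes separate in this way was not counted, here or for the members below. The changes were 0.55, 0.50 and 1.06 in H1993, H1693 and H1650 (SE 0.07, limma adjusted p = 0.000243, 0.000461 and 2.06e-06). The other CXCL2 probe set gave 0.46, 0.37 and 0.91 and passed in each line too. The brightest set is of the platform's x type, whose probes may also hybridise to related transcripts.

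CXCL8, which encodes interleukin 8, read 12.23 and 11.92 in H1993 KD, against 11.40 and 11.28 in H1993 PLKO. Its values were 6.20 and 6.50 in H1693 KD, against 6.28 and 5.97 in H1693 PLKO, and 10.84 and 10.82 in H1650 KD, against 8.49 and 8.63 in H1650 PLKO. The groups overlapped in H1693 and did not in the other lines. CXCL8 rose by 0.74 in H1993 (SE 0.14, 95% interval 0.43 to 1.06, adjusted p = 0.00261), a 1.67-fold rise, and its other probe sets there gave 0.84 and 0.96. The change in H1693 was 0.23 with an interval from -0.09 to 0.54 (adjusted p = 0.263), and of its other sets there 1 gave 0.42 (adjusted p = 0.0311 over all probe sets) and the other 0.15. The H1650 change was 2.27 (SE 0.14, adjusted p = 1.48e-06) on the brightest set, whereas the other sets gave -0.08 and 0.00, with arrays between 5.76 and 6.12.

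CXCL1 read 8.97 and 8.82 in H1993 KD, against 8.45 and 8.38 in H1993 PLKO. The change of 0.48 (SE 0.14, adjusted p = 0.0273) passed the limma test. It did not pass after quantile normalisation (0.41, adjusted p = 0.0589), with the replicate block (adjusted p = 0.067) or when any 1 of the 4 H1993 arrays was left out (0.41 to 0.55), and the other probe set gave 0.04. In H1693 CXCL1 read 6.80 and 7.25 in KD, against 7.27 and 7.01 in PLKO, a change of -0.12 (interval -0.44 to 0.20, adjusted p = 0.594). H1650 gave 9.29 and 9.12 in KD, against 8.80 and 8.91 in PLKO, a change of 0.35 that did not pass (adjusted p = 0.0647), although it did in a fit of the 4 H1650 arrays alone (adjusted p = 0.0429). Its other probe set there was at -0.35. Whether CXCL1 changed thus depended on the probe set and the arrays kept.

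CXCL3 was the member that fell in H1993. It read 5.81 and 5.97 in KD, against 6.27 and 6.70 in PLKO, a change of -0.59 (SE 0.14, adjusted p = 0.00849), and the other probe set gave -0.36 (adjusted p = 0.0566 over all probe sets). Without KD replicate 1 the change was -0.51 (adjusted p = 0.0615), and without PLKO replicate 2, the higher control, it was -0.38 (adjusted p = 0.0603). In H1693 CXCL3 read 6.14 and 6.24 in KD, against 6.15 and 6.17 in PLKO, a change of 0.03 (interval -0.28 to 0.34). In H1650 it rose, with 5.99 and 6.26 in KD, against 5.27 and 5.37 in PLKO, a change of 0.81 (SE 0.14, adjusted p = 0.000852), and 1.15 on the other set. CXCL3 and CXCL2, whose promoter windows share a run of 37 bases, therefore changed with opposite signs in H1993 and with the same sign in H1650.

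IL1A and IL1B encode interleukin 1 alpha and beta, which activate the same receptor, and IL1B is made as a precursor that caspase-1 cleaves. In H1993 IL1A read 6.83 and 7.06 in KD, against 4.88 and 4.90 in PLKO. The control arrays lay under the log2 signal of 5, and the KD arrays about 2 log2 units above them. The rise was 2.06 (SE 0.15, 95% interval 1.73 to 2.39, adjusted p = 8.49e-06), and signal near the background understates such a change. In H1650 IL1A read 6.22 and 6.19 in KD, against 4.98 and 4.97 in PLKO, a rise of 1.23 (SE 0.15, adjusted p = 8.45e-05), again with the control arrays under 5. In H1693 it read 5.16 and 4.62 in KD, against 4.61 and 4.70 in PLKO. There KD replicate 1 was high and KD replicate 2 lay between the control arrays, and the change was 0.24 (adjusted p = 0.271). Without KD replicate 2 it was 0.51 (adjusted p = 0.00889), and without KD replicate 1 it was -0.04.

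IL1B rose in H1993, where it read 7.87 and 7.79 in KD, against 6.75 and 6.40 in PLKO. The rise was 1.26 (SE 0.21, 95% interval 0.79 to 1.73, adjusted p = 0.00124), a 2.39-fold rise. In H1693 the values were 6.30 and 6.30 in KD, against 6.23 and 6.25 in PLKO, a change of 0.06 (interval -0.41 to 0.53). In H1650 they were 6.90 and 6.10 in KD, against 6.29 and 6.18 in PLKO. The KD arrays of H1650 lay on both sides of the controls, and the change of 0.27 did not pass (adjusted p = 0.31). Without KD replicate 2 it was 0.67 (adjusted p = 0.00283), and without KD replicate 1 it was -0.13. IL1A and IL1B have a single probe set each.

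IL6 signals through the receptor IL6R and the shared subunit gp130. In H1993 it read 5.81 and 5.61 in KD, against 5.78 and 5.81 in PLKO, and in H1693 5.26 and 5.02 in KD, against 4.92 and 5.15 in PLKO. The groups overlapped in both lines, with changes of -0.08 (interval -0.38 to 0.23, adjusted p = 0.725) and 0.10 (interval -0.20 to 0.41, adjusted p = 0.632). In H1650, where IL6 was bright, it read 12.65 and 12.62 in KD, against 11.59 and 11.97 in PLKO, a rise of 0.86 (SE 0.14, adjusted p = 0.000492). Its other probe set fell in the same arrays. That set read 6.13 and 5.75 in KD, against 8.46 and 7.96 in PLKO, a change of -2.27 (SE 0.19, adjusted p = 4.74e-06 over all probe sets). With the mean of the 2 sets IL6 fell by 0.71 in H1650, so its direction there was not settled.

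CCL2 attracts monocytes through the receptor CCR2. In H1693 it read 5.55 and 5.53 in KD, against 4.71 and 4.57 in PLKO, with the control arrays under the log2 signal of 5. The rise was 0.90 (SE 0.12, 95% interval 0.62 to 1.17, adjusted p = 0.000405), the largest among the 10 members in that line. In H1650 CCL2 read 9.22 and 9.17 in KD, against 7.37 and 7.62 in PLKO, a rise of 1.71 (SE 0.12, adjusted p = 3.42e-06). H1993 gave 4.10 and 3.83 in KD, against 3.81 and 3.54 in PLKO. All 4 of these arrays lay under the log2 signal of 5, and the change of 0.29 did not pass (adjusted p = 0.104).

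CCL20 is the ligand of CCR6. It read 8.48 and 8.72 in H1650 KD, against 7.47 and 7.49 in H1650 PLKO, a rise of 1.12 (SE 0.16, adjusted p = 0.000231). In H1993 the values were 5.97 and 5.95 in KD, against 5.86 and 5.80 in PLKO, a change of 0.13 (adjusted p = 0.601). In H1693 they were 5.18 and 4.83 in KD, against 5.51 and 5.04 in PLKO, and the groups overlapped. The H1693 change was -0.27 (adjusted p = 0.229), and without PLKO replicate 2 it was -0.51 (adjusted p = 0.0387). CCL2 and CCL20 have a single probe set each.

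TNFAIP3 encodes A20, a ubiquitin-editing enzyme that shuts down signalling to NF-kB after NF-kB has induced it. It read 10.91 and 10.64 in H1993 KD, against 10.32 and 10.38 in H1993 PLKO, a rise of 0.42 (SE 0.12, adjusted p = 0.0225). Its other probe set gave 0.43 there (adjusted p = 0.00308 over all probe sets). On the brightest set the H1993 rise did not pass without KD replicate 1 (0.29, adjusted p = 0.163), PLKO replicate 1 (0.39, adjusted p = 0.103) or PLKO replicate 2 (0.45, adjusted p = 0.0666). In H1693 it read 8.03 and 7.996 in KD, against 7.92 and 7.63 in PLKO, a change of 0.24 (adjusted p = 0.174), and 0.25 on the other set (adjusted p = 0.0417 over all probe sets). In H1650 it read 10.93 and 10.83 in KD, against 8.81 and 9.03 in PLKO, a rise of 1.96 (SE 0.12, adjusted p = 1.46e-06), and of 1.12 on the other set. Both KD arrays lay above both PLKO arrays in each of the 3 lines, although the H1693 change of the brightest set did not pass. The share of all genes that separate in this way was not counted.

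**Figure D3:**
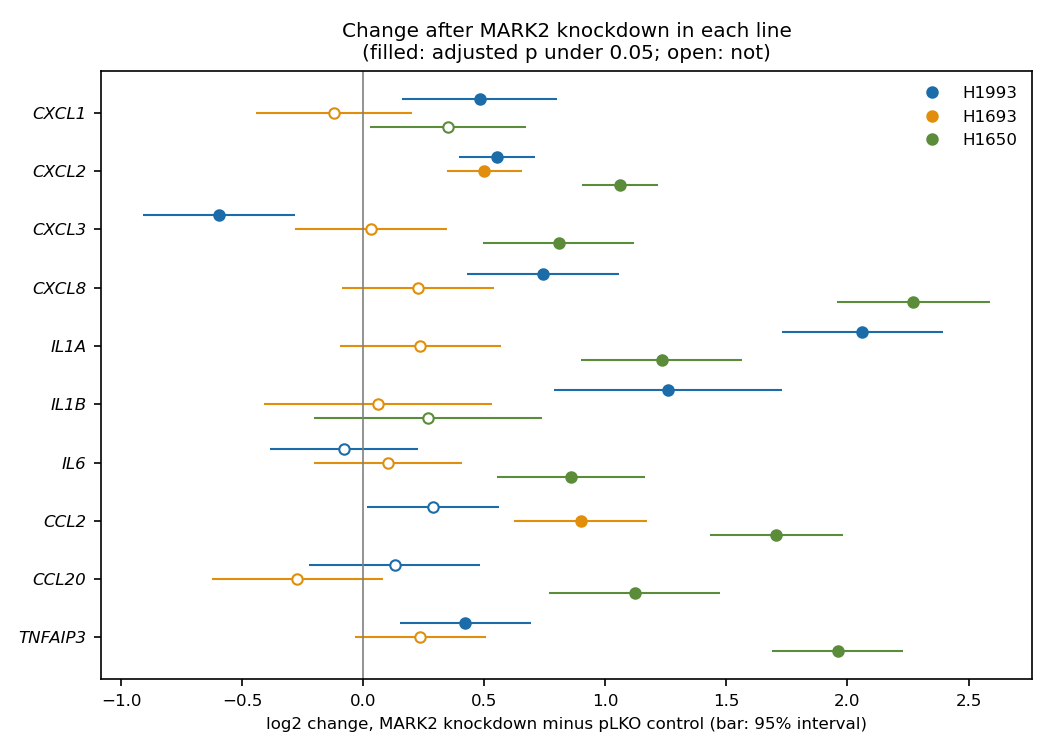
log2 change (MARK2 KD minus PLKO) of each member in each line, with the 95% interval from the limma fit. Filled points passed the test (adjusted p under 0.05) and open points did not. IL1A and IL1B have their largest change in H1993, at 2.06 and 1.26, and on the brightest set CXCL8 has its largest in H1650, at 2.27, while its other sets were at -0.08 and 0.00 there.

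Each probe set of a member was also tested on its own. Of the 17, 11 were called in H1993, 10 of them higher and 1 lower. In H1693 5 were called, and each was higher. In H1650 12 were called, 11 of them higher and 1 lower. Over all 38924 probe sets tested, 28.7%, 29.1% and 51.3% were called in either direction in H1993, H1693 and H1650. The widest disagreements were those of IL6 and CXCL8 in H1650, where sets of the same gene ran from -2.27 to 0.86 and from -0.08 to 2.27. CXCL2, CXCL3 and TNFAIP3 kept a single sign over their sets in H1650. The H1650 arrays are those with the raised 3' minus 5' signal, and its part in these disagreements was not tested.

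**Figure D4:**
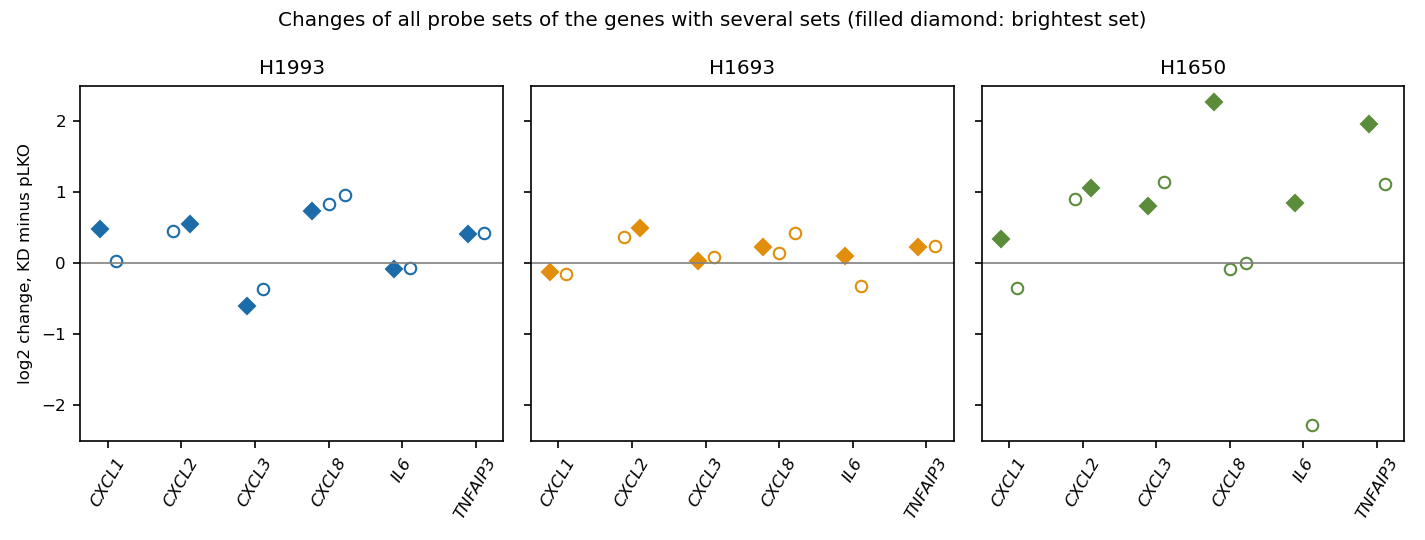
log2 change (MARK2 KD minus PLKO) of every probe set of the 6 members that have several, in H1993, H1693 and H1650. Filled diamonds mark the brightest set of a gene and open points its other sets, and in H1650 the IL6 sets lie at 0.86 and -2.27 and the CXCL8 sets at 2.27, 0.00 and -0.08.

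Whether the response differed between lines was tested as a difference of changes in the same fit. Between H1993 and H1693, the lines whose GAPDH 3' minus 5' signal lay near 0, 4 members differed, against 22.1% of all genes. IL1A and IL1B rose more in H1993, by differences of 1.83 (SE 0.21, adjusted p = 0.000323) and 1.20 (SE 0.30, adjusted p = 0.0175). IL1A entered the test only through knockdown arrays, and its PLKO arrays in both lines lay under the log2 signal of 5. Its difference therefore rests on the H1993 KD arrays, at 6.83 and 7.06. CXCL3 and CCL2 had the lower change in H1993, with differences of -0.63 (adjusted p = 0.0487) and -0.61 (adjusted p = 0.032). Every H1993 array of CCL2 (3.54 to 4.10) and its H1693 control arrays lay under the log2 signal of 5. The CCL2 call is therefore not read as a difference in response. The difference for CXCL2 was 0.05 with a 95% interval from -0.17 to 0.27. For CXCL1 and CXCL8 it was 0.60 and 0.51 and did not pass (adjusted p = 0.0628 and 0.0978). The count of 4 fell to 1 without H1693 KD replicate 1, H1693 PLKO replicate 1 or H1693 PLKO replicate 2, and to 2 without H1693 KD replicate 2 or without H1993 KD replicate 1, H1993 KD replicate 2 or H1993 PLKO replicate 2.

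The H1650 change exceeded that of H1693 for 8 members, against 46.4% of all genes called in either direction. TNFAIP3 and CXCL8 differed most, by 1.72 and 2.05. With the mean of a gene's probe sets 7 were higher and 1 lower. From the H1993 change, that of H1650 differed for 9 members, against 43.5% of all genes, and was higher for 7 and lower for 2, or higher for 5 and lower for 3 with the mean of the sets. The 2 were IL1A and IL1B, with differences of -0.83 (adjusted p = 0.00973) and -0.99 (adjusted p = 0.0219). The interleukin 1 genes therefore had their largest change in H1993, although the calls between lines did not all hold with an array left out. The chemokines CXCL2, CXCL8, CCL2 and CCL20 and the inhibitor TNFAIP3 had their largest change in H1650 on their brightest sets, with the RNA integrity of that line beside it. The other CXCL8 sets gave -0.08 and 0.00 in H1650, against 0.84 and 0.96 in H1993.

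In the control cells, CXCL8, TNFAIP3, IL6 and CCL2 differed between the lines by up to 5.21, 2.57, 6.74 and 3.82 log2 units. Among PLKO cells, 7 members differed between H1993 and H1693, 8 between H1650 and H1693 and 8 between H1650 and H1993, against 63.0%, 63.0% and 63.8% of all genes. The GAPDH 3' minus 5' signal was 2.68 ± 0.56 in H1650 PLKO arrays. In the control comparisons with H1650, line and RNA integrity therefore cannot be told apart. CXCL8 averaged 11.34 ± 0.09 in H1993 PLKO, 8.56 ± 0.10 in H1650 PLKO and 6.12 ± 0.22 in H1693 PLKO (log2 signal, SD, n = 2). Its level in H1993 was 37.1-fold that in H1693, a difference of 5.21 (SE 0.14, limma adjusted p = 5.11e-10), and each neighbouring pair in this order differed too. TNFAIP3 followed the same order, at 10.35 ± 0.04, 8.92 ± 0.15 and 7.78 ± 0.21, and each pair differed (adjusted p = 1.35e-05 or lower).

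IL6 averaged 11.78 ± 0.27 in H1650 PLKO, 5.79 ± 0.02 in H1993 PLKO and 5.04 ± 0.16 in H1693 PLKO. On this set H1650 exceeded H1693 by 6.74 and H1993 by 5.99 (adjusted p = 1.18e-10 and 2.04e-10), with H1693 at the log2 signal of 5, and H1993 exceeded H1693 by 0.76 (adjusted p = 0.00063). The gap was far smaller on the other IL6 set, which averaged 8.21 ± 0.35 in H1650, 5.60 ± 0.02 in H1993 and 5.63 ± 0.08 in H1693, so no fold is given. CCL2 was also highest in H1650, at 7.49 ± 0.18, against 4.64 ± 0.10 in H1693 and 3.68 ± 0.19 in H1993, and H1650 exceeded both (adjusted p = 1.81e-08 or lower). The H1693 and H1993 arrays all lay under the log2 signal of 5, so the call between those lines (adjusted p = 5.08e-05) is not read as a difference in level. CCL20 averaged 7.48 ± 0.01 in H1650, 5.83 ± 0.04 in H1993 and 5.28 ± 0.34 in H1693. H1993 exceeded H1693 by 0.56 (adjusted p = 0.0105), which did not pass without H1993 PLKO replicate 1 (0.53, adjusted p = 0.0528) or H1693 PLKO replicate 2 (0.32, adjusted p = 0.0987). The H1650 control arrays thus had the brightest IL6, CCL2 and CCL20, with the RNA integrity of that line beside it. The H1993 control arrays had the brightest CXCL8 and TNFAIP3.

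CXCL1 averaged 8.86 ± 0.08 in H1650 PLKO, 8.42 ± 0.05 in H1993 PLKO and 7.14 ± 0.18 in H1693 PLKO. H1650 exceeded H1993 by 0.44 (adjusted p = 0.0205), which did not pass after quantile normalisation (0.12, adjusted p = 0.489), with the mean of the probe sets (0.13) or without H1993 PLKO replicate 1 (0.48), H1993 PLKO replicate 2 (0.41) or H1650 PLKO replicate 2 (0.39). CXCL2 averaged 8.96 ± 0.08 in H1650, 10.21 ± 0.00 in H1993 and 10.49 ± 0.03 in H1693, and each pair differed (adjusted p = 0.00511 or lower). CXCL3 averaged 5.32 ± 0.07 in H1650, 6.49 ± 0.31 in H1993 and 6.16 ± 0.02 in H1693. It was lower in H1650 than in H1993 and H1693, with differences of -1.17 and -0.84, and H1993 minus H1693 gave 0.33, which did not pass (95% interval 0.01 to 0.64, adjusted p = 0.0653). That difference passed after quantile normalisation (0.43, adjusted p = 0.048) and without H1993 PLKO replicate 1 (0.55, adjusted p = 0.00482). On their brightest sets CXCL1 and CXCL8 were therefore dimmest in H1693, where CXCL2 was brightest. The order of CXCL1 between H1650 and H1993 was not settled. Its other set averaged 7.31 in H1650 PLKO, 7.49 in H1993 PLKO and 7.27 in H1693 PLKO.

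IL1A lay between 4.66 ± 0.06 and 4.97 ± 0.01 in the PLKO cells of the 3 lines, and IL1B between 6.24 ± 0.08 and 6.58 ± 0.24. No pair passed the test for either gene (unadjusted p from 0.058 to 0.993). A limma fit of only the 6 PLKO arrays estimates the spread from those arrays alone. For IL1A that fit gave 0.32 for H1650 minus H1693 (adjusted p = 0.00569) and 0.23 for H1993 minus H1693 (adjusted p = 0.0223). All 6 PLKO arrays of IL1A lay under the log2 signal of 5, so these calls are not read as differences in level. For IL1B the same fit gave 0.34 for H1993 minus H1693 (adjusted p = 0.0452) and -0.34 for H1650 minus H1993 (adjusted p = 0.0437). In the comparisons with H1650, line and RNA integrity cannot be told apart.

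A list of 102 other genes of the pathway was read by role, and 87 of them were tested. The list was drawn up with earlier results of these data known, so its counts are no independent evidence. A gene is named for the lines where its change was among the 3 largest of its role, and may have passed the test in other lines too. In H1993 32 rose and 3 fell, in H1693 17 rose and 7 fell, and in H1650 45 rose and 12 fell, with median changes of 0.10, 0.02 and 0.30. The shares higher were 36.8%, 19.5% and 51.7% of the list in H1993, H1693 and H1650, beside 18.9%, 17.1% and 36.7% of all genes tested, and the shares lower were 3.45%, 8.05% and 13.8%, beside 14.5%, 15.9% and 16.7%. The medians over all genes were 0.02, -0.02 and 0.15. In H1693 the share higher was thus close to that of all genes. Among inhibitors and feedback regulators 9 of 13 rose in H1993, 2 rose in H1693, and 4 rose and 3 fell in H1650. Those higher were 69.2%, 15.4% and 30.8% of the role, so that in H1693 and H1650 the share lay below that of all genes.

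The inhibitor and feedback genes named in H1993 are themselves NF-kB targets. ZFP36, which promotes decay of cytokine mRNAs, read 12.39 and 12.27 in H1993 KD, against 11.38 and 11.22 in H1993 PLKO, a rise of 1.03 (adjusted p = 3.91e-05). NFKBIZ, the nuclear IkB zeta, rose by 0.72 there and NFKBIA, the classical IkB alpha, by 0.64. NFKBIZ was called in all 3 lines, with 0.53 in H1693 and 0.72 in H1650. ZFP36 also rose in H1693, by 0.30 (adjusted p = 0.0386). In H1650 the largest changes of this role were those of TNIP1, a partner of A20, at -1.87 with probe sets from -2.25 to -0.14, NFKBIZ, and the deubiquitinase CYLD, at 0.48 with sets from -0.18 to 1.14.

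Of the 5 NF-kB subunits, RELB and NFKB2, which pair in the non-canonical pathway, rose in H1993. RELB read 9.88 and 9.95 in H1993 KD, against 8.89 and 8.92 in H1993 PLKO, a rise of 1.01 (adjusted p = 0.000552). NFKB2 read 10.97 and 10.97 in H1993 KD, against 10.14 and 10.05 in H1993 PLKO, a rise of 0.88 (adjusted p = 1.19e-05). In H1693 NFKB2 rose by 0.23 and NFKB1 fell by 0.20, and in H1650 NFKB1 rose by 0.27 and REL fell by 0.80. RELA did not pass in any line.

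Of 20 kinases and adaptors, 6 rose and 2 fell in H1993, 5 rose and 3 fell in H1693, and 12 rose and 4 fell in H1650. The shares higher were 30%, 25% and 60%, beside 18.9%, 17.1% and 36.7% of all genes. The shares lower were 10%, 15% and 20%, beside 14.5%, 15.9% and 16.7%, and so lay near those of all genes in H1693 and H1650. The adaptor TRAF1, a known NF-kB target, led in H1993 with 7.25 and 7.39 in KD, against 5.95 and 5.51 in PLKO, a rise of 1.59 (adjusted p = 3.91e-05), although its 3 probe sets ran from 0.55 to 1.59. TRAF3, which restrains the non-canonical kinase NIK, rose by 0.52 in H1993 and 0.47 in H1693, with another set at -0.30 and -0.14. MAP3K14, which encodes NIK, rose by 0.49 in H1993. In H1693 IRAK3, a brake on interleukin 1 receptor signalling, fell by 0.60 and CHUK, which encodes IKK alpha, fell by 0.42. In H1650 IRAK1, a kinase of that receptor, fell by 1.99 and MAP3K14 fell by 1.09, with another MAP3K14 set at 0.28, while TRAF1 rose by 1.01.

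Among upstream receptors and ligands, interleukin 1 receptor genes changed in every line. IL1RAP, the co-receptor, rose in each line, by 1.21 (H1993), 0.54 (H1693) and 1.53 (H1650), although its 4 probe sets reached down to -0.33, -0.49 and 0.01. IL1R1, the signalling receptor, rose by 0.43 in H1993 and 0.50 in H1693, with its other set at -0.20 and 0.02. IL1R2, a decoy receptor that binds interleukin 1 without signalling, read 7.51 and 7.26 in H1993 KD, against 8.91 and 8.57 in H1993 PLKO, and fell by 1.36 (adjusted p = 0.000138). In the other lines IL1R2 lay under the log2 signal of 5 on every array. TLR3, a receptor for double-stranded RNA, rose by 0.95 in H1693 and 1.35 in H1650. TNF read 5.51 and 5.53 in H1650 KD, against 4.84 and 4.53 in H1650 PLKO, a change of 0.84. No array outside H1650 KD reached the log2 signal of 5 for TNF, so it entered the test through the group where it was high. Of the members' own receptors, IL6ST, which encodes gp130, rose by 0.74 in H1993 and 0.81 in H1650, with sets as low as 0.08 and 0.00. IL6R rose by 0.58 in H1993, with a set at 0.19, and fell by 0.42 in H1693, with a set at 0.01. CCR2 rose by 0.28 in H1650 (limma adjusted p = 0.0456), with a set at -0.01.

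Other secreted NF-kB targets were 18 genes, of which 5 rose in H1993, 2 rose and 1 fell in H1693, and 10 rose and 2 fell in H1650. The shares higher were 27.8%, 11.1% and 55.6%, against 18.9%, 17.1% and 36.7% of all genes. The complement component C3 rose by 1.73 in H1993 and by 2.31 in H1650, and was at -0.55 in H1693. The siderophore-binding LCN2 rose by 1.29 in H1993 and 0.79 in H1693, and was at -0.99 in H1650, so that each of these 2 genes fell in a single line, and not the same line. The chemokine CXCL16 rose by 1.26 in H1993 and by 0.41 in H1693. In H1650 CXCL10, a T cell chemokine, rose by 2.94 and PTX3, a soluble pattern recognition protein, by 1.79.

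Among 14 further targets, PTGS2, which encodes cyclooxygenase 2, rose by 1.40 in H1993 and by 1.20 in H1650, with a set at -0.22 in H1650. The collagenase MMP1 rose by 1.37 in H1993. PLAU, the urokinase, rose in each line, by 0.95 (H1993), 0.31 (H1693) and 0.95 (H1650), with a set at -3.25 in H1650. MMP9, a gelatinase, fell by 1.35 in H1693, where the stress-response gene IER3 rose by 0.27. MMP3, a stromelysin, rose by 1.96 in H1650.

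**Figure D5:**
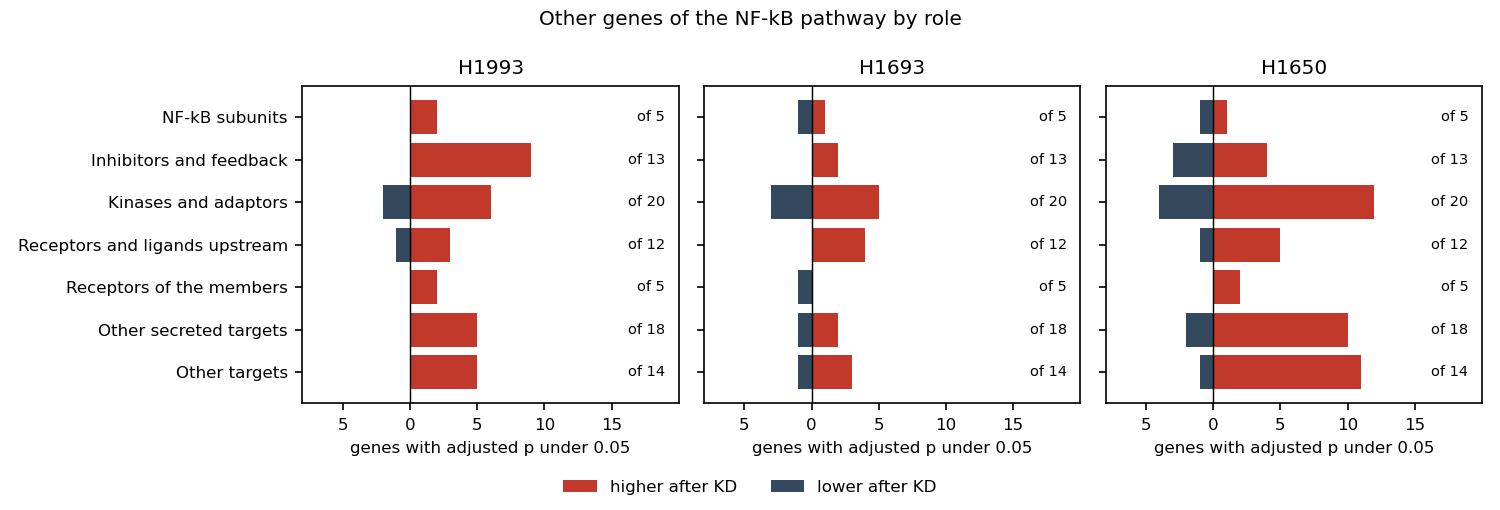
Numbers of other NF-kB pathway genes with an adjusted p under 0.05, by role and line, to the right of 0 for genes higher and to the left for genes lower after MARK2 KD, with the number tested in each role at the right edge. Inhibitors and feedback regulators have 9 of 13 genes higher in H1993, 2 in H1693 and 4 in H1650, where 18.9%, 17.1% and 36.7% of all genes were higher.

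Over the 12 arrays, the tested genes whose signal was most like that of IL1A were ATP7A, PDIA5, POPDC2, HLA-C and CLINT1 (Pearson r from 0.932 to 0.954). Those most like CXCL8 were ESCO1, AOPEP, AZIN1, MSMO1 and NCOA4 (r from 0.992 to 0.997). These correlations are a description: the arrays fall into 3 lines, and for CXCL8 they largely follow the levels of the lines.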

How the data were processed

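Total RNA of 12 cultures (3 lines, MARK2 KD and empty-vector PLKO, 2 biological replicates a group, per the labels) was read on Affymetrix PrimeView arrays. Per the submitters' processing notes, the authors used Affymetrix Expression Console and RMA, whose versions are not given in the sources used here, to make the deposited log2 signals. That method removes background, brings the arrays to a common distribution and summarises probes, so changes near the background are understated. Array medians ran from 7.13 to 7.32, and the number of arrays limits the precision.

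The platform annotation named the 49395 probe sets, updated by gene ID through RefSeq (GRCh38.p14), where 44961 of the 44988 used matched. The brightest set stood for each gene, and genes with at least 2 arrays at a log2 signal of 5 were tested. A mean for each of 6 groups was fitted with limma 3.58.1 in R 4.3.3 (eBayes, 6 residual degrees of freedom, prior 3.52), two-sided, with Benjamini-Hochberg adjustment over 16205 genes and a threshold of 0.05; probe sets were fitted apart. The code was tested on simulated data. Replicate arrays were not duplicates (identical values in at most 0.0992% of probe sets).

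The members and the pathway and marker lists were chosen with earlier results of these data known. Pathway genes are named by rule: up to 3 past the threshold with the largest absolute change per line and role; for likeness, the 5 highest correlations with IL1A and with CXCL8. Of the 7 promoter windows printed, and 2 not printed, each is the table's uppermost entry for its gene. The promoter of CCL2 was not used here. Alternatives were quantile normalisation, other filters, the mean of a gene's sets, fewer arrays, trended and robust moderation, the replicate block and each array left out.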

Additional observations from a re-analysis of the deposited data

Results flagged for a closer look

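The results below were singled out because a member's KD minus PLKO change differed between 2 lines in a direct limma test of the difference (adjusted p under 0.05 over all genes). Groups of 2 arrays are too small to test an array as an outlier.

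For H1993 minus H1693 the difference of changes was 1.83 for IL1A, 1.20 for IL1B, -0.63 for CXCL3 and -0.61 for CCL2 on the log2 scale. IL1A and IL1B rose in H1993 and did not pass in H1693, CXCL3 fell in H1993, and CCL2 rose in H1693. The IL1A control arrays of both lines lay under the log2 signal of 5, and IL1A entered the test only through knockdown arrays. Every H1993 array of CCL2 lay under the log2 signal of 5, which limits what its differences from that line can show. In H1993 the summed leucocyte marker signal was also higher in KD (9.39 to 9.49) than in PLKO arrays (8.92 to 9.07), which was not tested against the cytokines. CD14 was the brightest marker in that sum, and not every marker of the list was higher: CSF1R averaged 6.39 in H1993 KD, against 6.44 in H1993 PLKO.

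For H1650 minus H1693 the differences were 2.05 for CXCL8, 1.72 for TNFAIP3, 1.40 for CCL20, 1.00 for IL1A, 0.81 for CCL2, 0.78 for CXCL3, 0.75 for IL6 and 0.56 for CXCL2.

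For H1650 minus H1993 they were 1.54 for TNFAIP3, 1.53 for CXCL8, 1.42 for CCL2, 1.40 for CXCL3, 0.99 for CCL20, 0.94 for IL6 and 0.51 for CXCL2, and -0.83 for IL1A and -0.99 for IL1B. In every comparison with H1650 the hairpin and RNA integrity cannot be told apart, and the dimmer probe sets of CXCL8 and IL6 did not show the rise of the brighter set in that line.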

How the results depend on the processing

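Of 510 member values (change in a line or control level between lines) under other settings, 489 kept their direction and their side of the threshold, 4 lost the call, 13 gained it and 4 turned; of 720 with an array left out, 682 were kept, 14 lost it, 14 gained it and 10 turned. The count of members called in H1693 was 4 with the mean of a gene's probe sets, against 2, by gaining CXCL8 (0.27) and TNFAIP3 (0.24). For that same setting IL6 turned to -0.11 in H1693 and -0.71 in H1650 and CXCL1 to -0.00097 in H1650, because a second set ran the other way, and after quantile normalisation the IL1A control level for H1650 minus H1993 turned to -0.071, of which the cause was not tested. Leaving out arrays, the count ran from 4 to 7 in H1993 (4 without KD replicate 1 or PLKO replicate 2), from 2 to 3 in H1693 and from 8 to 9 in H1650. The number of members that differed between H1993 and H1693 ran from 1 to 4 with arrays left out, was 6 with the mean of the sets and 6 with crossed numbers, against 4, and ran from 3 to 5 otherwise. Values that turned with an array left out ran from -0.18 to 0.021 for IL6 in H1993, and in H1693 from -0.34 to 0.10 for CXCL1, -0.020 to 0.082 for CXCL3, -0.036 to 0.51 for IL1A and -0.019 to 0.23 for IL6. They ran from -0.13 to 0.67 for IL1B in H1650 and from -0.059 to 0.055 for its control level, H1650 minus H1693. Same-numbered KD and PLKO arrays did not deviate together in every line (correlations of 0.29, -0.18 and -0.11 in H1993, H1693 and H1650), so the numbers were not taken as pairs. With the replicate block the counts were 6, 2 and 8 in H1993, H1693 and H1650, CXCL1 in H1993 being the call lost (0.48, adjusted p = 0.067). Crossing the numbers in H1650 and H1693, an alternative added after seeing the data, gave 8, 2 and 9; no block could be fitted for control levels. Without the 4 H1650 arrays, also added later, the counts in H1993 and H1693 were 7 and 2. Signals near 5, as for IL1A in PLKO cells and CCL2 in H1993, limit what changes can be read.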
